A study of Mus musculus with 282 samples.

Results

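The 10 genes described here encode subunits and feedback inhibitors of the transcription factor NF-kB, namely Nfkb1, Nfkb2, Relb, Bcl3, Nfkbia, Nfkbiz, Nfkbie, Tnfaip3, Birc3 and Zc3h12a. They were chosen by name, with earlier results of these data known, and each matched 1 of the 48440 gene rows of the count tables. They were compared between single cells labelled basal prostate stem cells, out of inflamed and out of naive prostates of male POET3 mice, a transgenic line that expresses ovalbumin in the prostate and serves as a model of prostatitis. Prostates were dissociated with enzymes, and cells stained with a viability dye were sorted with antibodies to CD45, CD31, Sca-1 and CD49f. The inflamed cells numbered 85 in batch 2 and 78 in batch 3, and the naive cells 55 in batch 2 and 64 in batch 3. The labels give no age, no way in which inflammation was induced, no animal for a cell and no sort gates, and do not say which cells were captured together, so a batch may or may not be a separate set of animals.

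NF-kB is a dimer of Rel family proteins. In a resting cell, inhibitor proteins of the IkB family hold it in the cytoplasm. When receptors for interleukin 1, tumour necrosis factor or microbial products are engaged, the IkB kinase complex marks the inhibitor for destruction and the dimer enters the nucleus. Among the genes it then switches on are its own subunits and inhibitors, so that transcripts of the feedback genes are often read as a sign of the pathway's activity.

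Cells with fewer than 1000 genes read or fewer than 50000 counts were dropped, and 80 and 76 inflamed cells and 53 and 59 naive cells of batches 2 and 3 remained, 268 in all. They held 52475 to 2219764 counts each, and the middle cell had reads of 4683 and 4109 genes in inflamed and 4739 and 3432 genes in naive cells. Because the chemistry adds no molecular identifiers, each count stands for a sequenced read, and copies of the same molecule are not told apart. Intervals on ratios of counts treat reads as independent and leave out the spread between cells, so they are too narrow. Intervals on shares of cells cover only the counting of cells. Cells are not replicates, and counts were therefore summed over the cells of each condition and batch. Levels of the 4 sums are in CPM, counts scaled to a common library size with TMM correction, and levels of a single cell are in CPM of that cell. Basal markers were read in every sum (10 of 10 tested, summed level 13831 and 13851 CPM in inflamed and 8205 and 10033 CPM in naive sums). Of 12 luminal markers all were tested, at a summed level of 2618 and 2392 CPM in inflamed and 1300 and 2108 CPM in naive sums. Most single markers did not follow these sums. In both batches, 4 basal markers were higher and 2 lower in inflamed cells, and 3 luminal markers were higher and 4 lower. Over all genes tested, 30.9% were higher and 28.3% lower. Median log2 fold changes in batches 2 and 3 were 0.25 and 0.08 for basal and -0.19 and -0.45 for luminal markers. Of 12 leukocyte markers, 10 had no read in any sum, Ptprc (CD45) among them, in cells sorted with an antibody to CD45, and the list summed to 0.0127 and 0.684 CPM in inflamed and 0 and 0 CPM in naive sums. Whether rows at 0 in every cell are as first counted could not be checked, so these zeros are a limited measure of purity. The 8 endothelial markers summed to 1.31 and 2.24 CPM in inflamed and 0.709 and 0.864 CPM in naive sums, with Emcn and Cldn5 at 0. The 10 stromal markers summed to 3378 and 4434 CPM in inflamed and 4004 and 4369 CPM in naive sums, with Pdgfrb, Lum, Myh11 and Des at 0. The part of the epithelial marker levels in the differences described below was not tested.

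Because NF-kB acts on promoters of its own inhibitors, the region around the transcription start of 4 of the genes is shown, from 250 bases before the start to 50 after it (RefSeq, GRCm38.p6, written 5′ to 3′ on the gene's strand). They are Nfkbia at chr12:55492598-55492897, Tnfaip3 at chr10:19015361-19015660 (the first of its 2 listed starts), Bcl3 at chr7:19822706-19823005 and Birc3 at chr9:7873121-7873420, all on the minus strand. Capitals mark matches of the NF-kB consensus motif on either strand.
Nfkbia: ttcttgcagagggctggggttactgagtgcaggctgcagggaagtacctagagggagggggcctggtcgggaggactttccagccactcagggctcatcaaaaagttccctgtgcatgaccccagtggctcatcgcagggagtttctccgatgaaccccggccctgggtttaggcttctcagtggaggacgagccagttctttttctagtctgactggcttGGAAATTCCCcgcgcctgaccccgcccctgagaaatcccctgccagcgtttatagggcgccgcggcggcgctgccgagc
Tnfaip3: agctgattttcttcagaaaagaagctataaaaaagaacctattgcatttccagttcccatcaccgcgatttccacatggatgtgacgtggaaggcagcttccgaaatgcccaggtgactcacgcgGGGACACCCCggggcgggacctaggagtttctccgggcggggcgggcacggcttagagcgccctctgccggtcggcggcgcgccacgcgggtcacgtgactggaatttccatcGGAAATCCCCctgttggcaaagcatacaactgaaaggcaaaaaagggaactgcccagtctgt
Bcl3: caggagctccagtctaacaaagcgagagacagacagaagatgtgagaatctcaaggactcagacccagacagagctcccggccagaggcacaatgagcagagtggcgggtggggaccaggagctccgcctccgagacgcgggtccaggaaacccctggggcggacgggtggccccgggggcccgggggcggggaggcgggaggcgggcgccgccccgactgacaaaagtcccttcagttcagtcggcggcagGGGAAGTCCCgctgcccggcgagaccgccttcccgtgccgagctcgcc
Birc3: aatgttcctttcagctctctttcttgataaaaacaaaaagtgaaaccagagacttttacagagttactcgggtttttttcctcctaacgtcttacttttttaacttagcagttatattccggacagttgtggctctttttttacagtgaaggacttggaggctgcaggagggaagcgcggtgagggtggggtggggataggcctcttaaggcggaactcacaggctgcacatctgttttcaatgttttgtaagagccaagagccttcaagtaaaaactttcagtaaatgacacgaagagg

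The motif lies 29 bases before the start in Nfkbia, at 2 places before it in Tnfaip3, the nearer 12 bases away, and 2 bases after it in Bcl3, and these letters are not in the Birc3 window. Of the 7 genes with a listed promoter, 5 held a match in at least 1 window, Nfkb2 and Nfkbie being the other two, and Birc3 and Zc3h12a held none. Some genes have several windows, and counted by window 7 of the 10 held a match, against 8.46% (2779 of 32841) of all promoter windows of the same length. Windows 2 and 3 of Nfkb2 overlap and share a match, so the windows are not separate counts. A match is a description of the letters and does not show that the factor binds there. Nfkb1, Relb and Nfkbiz were not among the listed promoters.

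Taken gene by gene over the 4 sums, 6 of the 10 genes stood higher in both inflamed sums than in either naive sum: Relb, Bcl3, Nfkbiz, Nfkbie, Birc3 and Zc3h12a. Over all 14713 genes tested, 24.3% did so. Nfkb2 was lower in both inflamed sums than in either naive sum, and 21.3% of all genes were. Nfkb1, Nfkbia and Tnfaip3 overlapped between the conditions and went opposite ways in the batches. The median log2 fold change of the 10 genes, inflamed over naive, was 1.44 in batch 2 and 0.78 in batch 3, against 0.05 and 0.06 over all genes tested. Because the 10 genes were chosen with earlier results of these data known, the values set beside all genes are a description and no test. All 10 genes passed the filter on low counts. Nfkbie, with 2 and 57 counts in the naive sums of batches 2 and 3, would not have passed on those sums alone. It passed through its inflamed sums, where it was high, so its place in the counts here and below depends on that filter.

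None of the 10 passed the test. With edgeR's quasi-likelihood test over all genes and the batch in the model, 0% of genes were called higher and 0% lower after Benjamini-Hochberg adjustment (lowest adjusted p = 0.568). At an unadjusted p under 0.05 by edgeR, Birc3 and Nfkbie were higher and none of the 10 was lower, where 5.04% of all genes were higher and 3.23% lower. DESeq2 called the same 2 genes higher, where it called 7.13% of 13001 genes higher and 4.11% lower. The test has 1 residual degree of freedom, so all values below describe genes that missed the threshold by the main test.

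**Figure D1:**
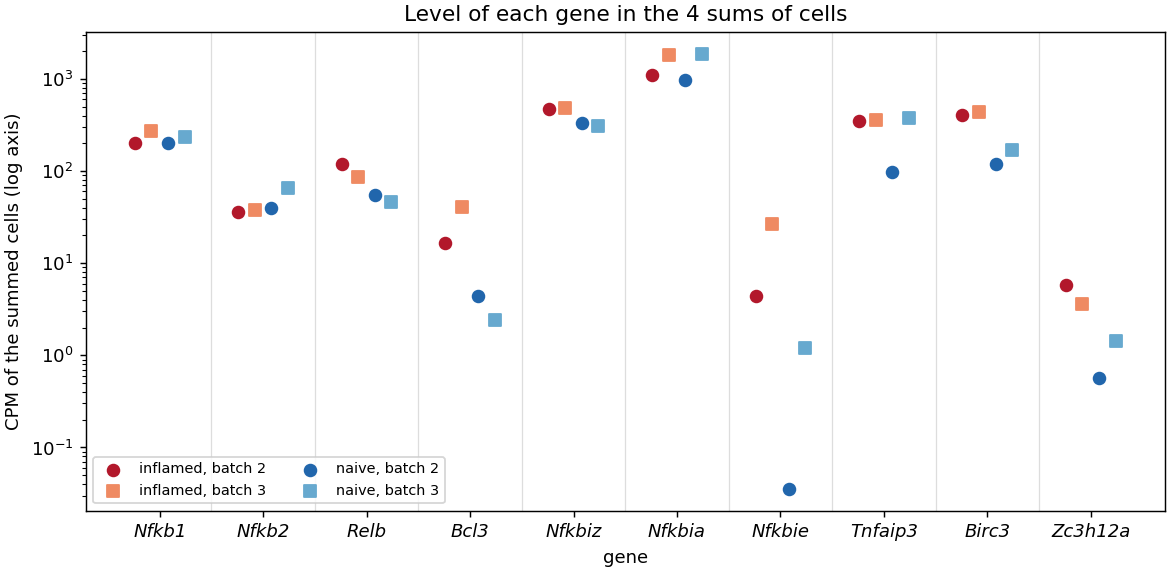
CPM of the 10 genes (log axis) in the sums of inflamed and naive cells of batches 2 and 3, 1 point per sum. Both inflamed points lie above both naive points for Relb, Bcl3, Nfkbiz, Nfkbie, Birc3 and Zc3h12a, while Nfkbia lies between 969 and 1861 CPM in all 4 sums.

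The subunits were described first. Nfkb1 encodes p105, a precursor that is cut to the DNA-binding subunit p50 and that as a whole protein also acts as an inhibitor (chromosome 3, 135584655 to 135691547, minus strand, GRCm38). It had 198.8 and 268 CPM in the inflamed sums of batches 2 and 3, against 203 and 234 CPM in the naive sums. The 4 values overlapped between the conditions, and the log2 fold change was 0.08 ± 0.33 (SE, n = 2 each). In single inflamed cells it ran from 0 to 2239 CPM with a median of 15.8 in batch 2, and from 0 to 2362 CPM with a median of 49.8 in batch 3. In naive cells it ran from 0 to 2124 CPM with a median of 55.3 in batch 2, and from 0 to 1798 CPM with a median of 11 in batch 3. The order of the medians was thus opposite in the batches.

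Nfkb2 encodes p100, the precursor of the subunit p52, which serves the non-canonical branch of the pathway (chromosome 19, 46304320 to 46312385, plus strand). It had 36.1 and 37.8 CPM in inflamed and 39.4 and 66.1 CPM in naive sums, which is -0.47 ± 0.66 (SE, n = 2 each) on the log2 scale. The inflamed sums were both below the naive ones, by less than the standard error. Its exons overlap those of Psd and of a long non-coding RNA on the opposite strand, whose reads cannot be told apart from its own where they overlap. Without the cell with the most reads in each sum, the log2 fold change was -0.60 ± 0.80 (SE).

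Relb encodes the partner of p52 in the non-canonical dimer (chromosome 7, 19606217 to 19629438, minus strand). It had 117.8 and 85.7 CPM in inflamed and 55.1 and 45.7 CPM in naive sums, 2.14-fold higher in batch 2 and 1.87-fold higher in batch 3. The fitted log2 fold change was 1.00 ± 0.48 (SE, n = 2 each; edgeR adjusted p = 0.648). In naive batch 2, 1 cell with 2448 reads gave 78.7% of all Relb reads, and in naive batch 3 1 cell gave 42.2%. The largest share of 1 inflamed cell was 12.9% in batch 2 and 15% in batch 3. With the top cell left out of each sum, the log2 fold change was 2.02 ± 0.79 (SE). For Relb, and for Bcl3, Birc3 and Zc3h12a below, this setting takes a larger part of the naive than of the inflamed reads. It thereby raises the fold and is no independent support. Over all genes tested, it moved the median log2 fold change from 0.10 to 0.17.

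The remaining Rel family subunits are not among the 10 genes but complete the family. Rel, which encodes c-Rel, had 137.3 and 243.6 CPM in inflamed and 445 and 414 CPM in naive sums. Both inflamed sums were below both naive ones, 3.24-fold in batch 2 and 1.70-fold in batch 3 (log2 fold change -1.23 ± 0.39, SE, n = 2 each; edgeR adjusted p = 0.568). Rela, which encodes p65, had 369 and 154.3 CPM in inflamed and 253.1 and 437 CPM in naive sums, and its direction differed between the batches. Levels were also divided by kilobases of exon, to set genes roughly side by side. The length joins all annotated exons of a gene, 12061 bases for Nfkb1 and 3072 for Rela, whether or not these cells use them. On that scale Rela stood at 120.1 and 50.2 CPM in inflamed and 82.4 and 142.4 CPM in naive sums, and Rel at 18.4 and 32.6 in inflamed and 59.6 and 55.4 in naive sums. Nfkb1 stood at 16.5 and 22.3 CPM per kilobase in inflamed and 16.9 and 19.4 in naive sums, and Relb at 30.3 and 22.1 in inflamed and 14.2 and 11.8 in naive sums. Nfkb2 was the lowest of these in the inflamed sums, at 7.87 and 8.25 CPM per kilobase, against 8.59 and 14.4 in naive sums.

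**Figure D2:**
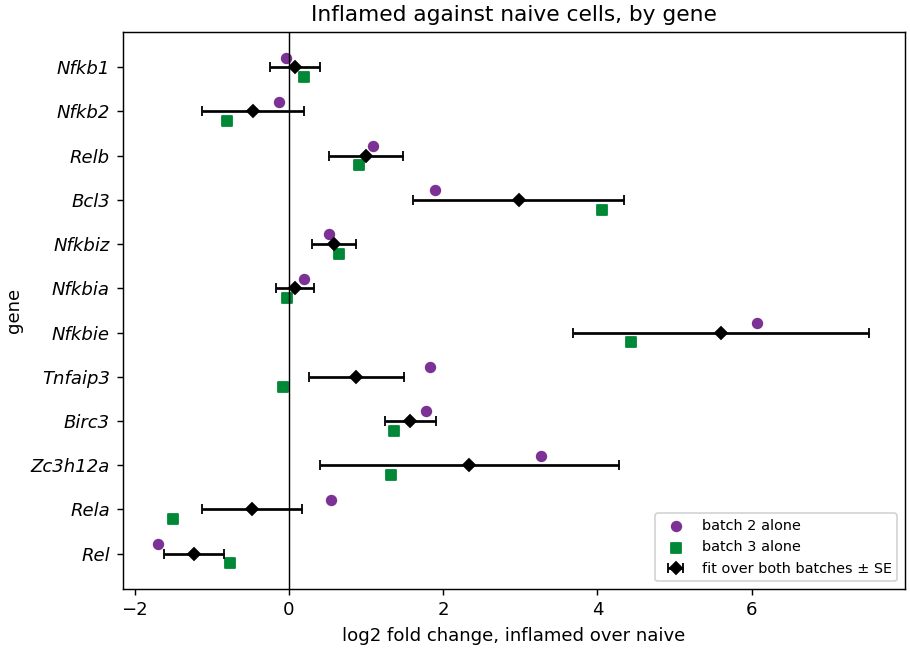
Log2 fold change, inflamed over naive, of the 10 genes and of Rela and Rel: black diamonds are the edgeR fit over both batches with its standard error (n = 2 sums per condition), circles batch 2 and squares batch 3 alone. Birc3 lies at 1.57 with batch values of 1.78 and 1.36, Nfkb1 and Nfkbia lie at 0.08, and Tnfaip3 splits into 1.83 and -0.08.

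Bcl3 and Nfkbiz encode atypical, nuclear IkB proteins, which bind p50 or p52 dimers on DNA and can activate as well as repress genes. Bcl3 (chromosome 7, 19808462 to 19822770, minus strand) had 16.5 and 41.1 CPM in inflamed and 4.43 and 2.44 CPM in naive sums. It was 3.72-fold higher in batch 2 and 16.8-fold higher in batch 3 (log2 fold change 2.98 ± 1.37, SE, n = 2 each; edgeR adjusted p = 0.629). The naive levels rest on few cells, since 1 cell gave 63.2% of the reads in batch 2 and 66.4% in batch 3. Without the top cell of each sum the log2 fold change was 3.78 ± 1.45 (SE), and without 1 sum at a time it was 2.29 to 3.59, the lowest without inflamed batch 3. Reads of Bcl3 were found in 45% (95% exact Clopper-Pearson interval 33.8 to 56.5) of inflamed cells of batch 2 and 53.9% (42.1 to 65.5) of batch 3, against 28.3% (16.8 to 42.3) and 13.6% (6.04 to 25) of naive cells. Its exons overlap the antisense gene Gm16175, and reads of the pair cannot be told apart where they overlap, since the library chemistry does not mark strand.

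Nfkbiz, which encodes IkB-zeta, a coactivator that epithelial cells make in response to interleukin 1 and interleukin 17 (chromosome 16, 55811375 to 55838899, minus strand), differed little in the sums and more in the middle cell. The sums held 472 and 486 CPM in inflamed and 329 and 309.6 CPM in naive cells, a ratio of 1.44 in batch 2 and 1.57 in batch 3 (log2 fold change 0.59 ± 0.29, SE, n = 2 each; edgeR adjusted p = 0.657). Single inflamed cells ran from 0 to 2547 CPM with a median of 341 in batch 2, and from 0 to 5007 CPM with a median of 275.4 in batch 3. Single naive cells ran from 0 to 3808 CPM with a median of 19.1 in batch 2, and from 0 to 4919 CPM with a median of 8.69 in batch 3. The highest cells of the 2 conditions were thus of like level, while the median naive cell was far lower. In the naive sums, the top 4 of 53 and 5 of 59 cells held at least 50% of all Nfkbiz reads, and in the inflamed sums it took 15 of 80 and 12 of 76 cells.

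The classical inhibitors bind the dimer in the cytoplasm. Nfkbia, which encodes IkB-alpha, the inhibitor that is destroyed and remade fastest after a signal (chromosome 12, 55489410 to 55492647, minus strand), was the most abundant of the 10 genes. It had 1106 and 1823 CPM in inflamed and 969 and 1861 CPM in naive sums, so batch 3 was higher than batch 2 in both conditions. The ratio of inflamed to naive was 1.14 in batch 2 and 0.98 in batch 3, and the log2 fold change was 0.08 ± 0.25 (SE, n = 2 each). All 268 kept cells had a read of it. Single inflamed cells ran from 38.2 to 3295 CPM with a median of 777 in batch 2, and from 18.5 to 7911 CPM with a median of 1455 in batch 3. Single naive cells ran from 12.8 to 3322 CPM with a median of 785.5 in batch 2, and from 9.59 to 6985 CPM with a median of 1330.3 in batch 3. The conditions overlapped over almost the whole range. Per kilobase of exon it stood at 687 and 1132 CPM in inflamed and 602 and 1156 CPM in naive sums.

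Nfkbie, which encodes IkB-epsilon (chromosome 17, 45555703 to 45563169, plus strand), was rare. It had 349 and 2030 counts (4.43 and 26.7 CPM) in the inflamed sums, against 2 and 57 counts (0.0354 and 1.20 CPM) in the naive sums. The ratio of inflamed to naive in batch 2 was 124.9 with a 95% counting interval of 34.3 to 1036, and in batch 3 it was 22.2. In naive batch 3, 1 cell gave 56 of the 57 reads. The reads came from 8 of 80 and 13 of 76 inflamed cells and from 1 of 53 and 2 of 59 naive cells, and in the inflamed sums 1 cell gave 44.7% and 45.7% of them. Its edgeR adjusted p was 0.568 and its DESeq2 adjusted p 0.00503.

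**Figure D3:**
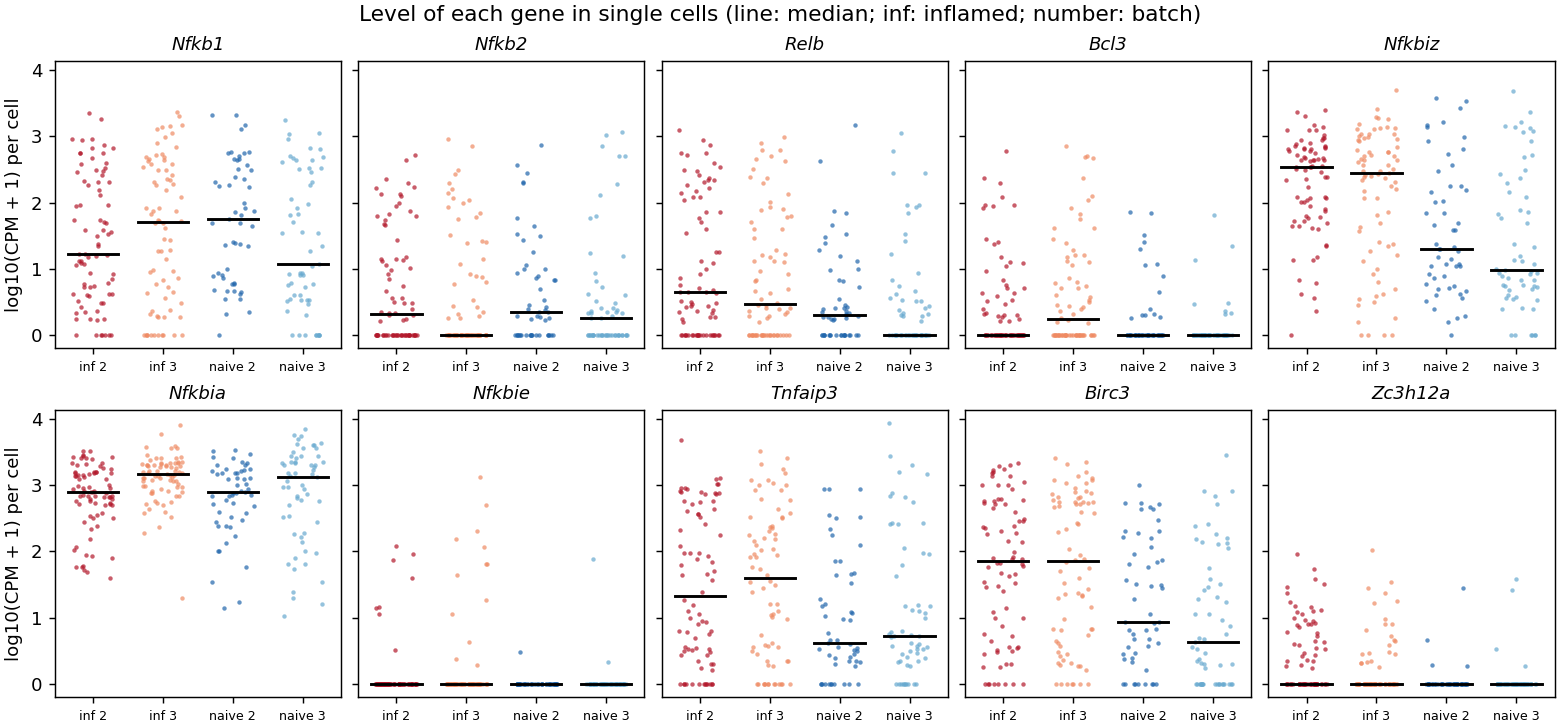
Level of each of the 10 genes in single kept cells, as log10(CPM + 1), by condition and batch, 1 point per cell, with a line at the median. Nfkbia overlaps between all 4 groups, whereas the medians of Nfkbiz, Tnfaip3 and Birc3 are higher in both inflamed groups, and most cells have no read of Nfkbie.

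Tnfaip3, Birc3 and Zc3h12a act on the pathway or on its products in other ways. Tnfaip3 encodes A20, a ubiquitin-editing enzyme that ends signalling upstream of the kinase complex (chromosome 10, 19000910 to 19015657, minus strand). It had 351 and 355 CPM in inflamed and 98.4 and 375 CPM in naive sums. It was 3.57-fold higher in batch 2 and 1.06-fold lower in batch 3 (log2 fold change 0.88 ± 0.61, SE, n = 2 each; edgeR adjusted p = 0.779). In naive batch 3, 3 cells gave at least 50% of its reads and 1 cell, with 5805 reads, gave 32.6%. The median inflamed cell had 20.3 CPM in batch 2 and 39.2 CPM in batch 3, and the median naive cell 3.11 CPM in batch 2 and 4.27 CPM in batch 3. The medians were higher in inflamed cells in both batches, where the sums were so in batch 2 alone.

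Birc3 encodes cIAP2, a ubiquitin ligase bound to receptor complexes of the tumour necrosis factor family, which protects cells from death and keeps the non-canonical branch off (chromosome 9, 7848699 to 7873186, minus strand). It had the lowest p of the 10 genes. It had 405 and 436 CPM in inflamed and 117.9 and 169.4 CPM in naive sums, 3.43-fold higher in batch 2 and 2.57-fold higher in batch 3. The log2 fold change was 1.57 ± 0.33 (SE, n = 2 each), with an edgeR adjusted p of 0.568 and a DESeq2 adjusted p of 0.0241. Single inflamed cells ran from 0 to 2162 CPM with a median of 70.2 in batch 2 and from 0 to 2515 CPM with a median of 70.1 in batch 3. Single naive cells ran from 0 to 997 CPM with a median of 7.61 in batch 2 and from 0 to 2835 CPM with a median of 3.27 in batch 3. In naive batch 3, 1 cell gave 42.4% of the reads, and without the top cell of each sum the log2 fold change was 1.70 ± 0.37 (SE).

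Zc3h12a encodes Regnase-1, a ribonuclease that degrades mRNAs of inflammatory genes (chromosome 4, 125118423 to 125127840, minus strand). It was low throughout, at 5.76 and 3.64 CPM in inflamed and 0.567 and 1.43 CPM in naive sums, 10.2-fold higher in batch 2 and 2.54-fold higher in batch 3 (log2 fold change 2.34 ± 1.94, SE, n = 2 each; edgeR adjusted p = 0.828). A read was found in 48.8% (95% exact interval 37.4 to 60.2) of inflamed cells of batch 2 and 30.3% (20.2 to 41.9) of batch 3, against 7.55% (2.09 to 18.2) and 6.78% (1.88 to 16.5) of naive cells. The naive reads came from 4 cells in each batch, of which 1 gave 71.9% in batch 2 and 67.6% in batch 3. Without the top cell of each sum the log2 fold change was 3.29 ± 1.99 (SE), and without 1 sum at a time it was 1.72 to 3.10, the lowest without naive batch 2 and the highest without naive batch 3.

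Shares of cells were read first at 1 read or more over all kept cells. On that measure 6 of the 10 genes (Relb, Bcl3, Nfkbiz, Nfkbie, Birc3 and Zc3h12a) had a higher share of inflamed than of naive cells in both batches, where 30.8% of all genes did. Nfkb2 had a lower share in both, where 28.1% of all genes did. After each cell was thinned to 500000 counts, which left out 25 shallower cells (10 and 4 inflamed cells and 7 and 4 naive cells of batches 2 and 3), it was 7 of 10, where 34.8% of all genes did. With at least 5 reads in thinned cells, a combination chosen after seeing the data, it was 8 of 10, where 42.4% of all genes did, Nfkb2 and Tnfaip3 being the 2 added to the first 6. The order of the genes by the size of the difference also depended on the measure.

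At 1 read over all kept cells, Zc3h12a and Bcl3, with the shares given above, differed most, Zc3h12a by 41.2 percentage points in batch 2 and 23.5 in batch 3, and Bcl3 by 16.7 and 40.4. Birc3 had a read in 90% (95% exact interval 81.2 to 95.6) and 90.8% (81.9 to 96.2) of inflamed cells, against 83% (70.2 to 91.9) and 67.8% (54.4 to 79.4) of naive cells. Relb had one in 71.2% (60 to 80.8) and 65.8% (54 to 76.3) of inflamed cells, against 64.2% (49.8 to 76.9) and 49.2% (35.9 to 62.5) of naive cells. The intervals of Relb overlapped in each batch.

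Nfkbiz had a read in 98.8% and 94.7% of inflamed cells, against 98.1% and 89.8% of naive cells, a difference of 0.637 and 4.91 points. Tnfaip3 had one in 83.8% and 82.9% of inflamed cells, against 79.2% and 83.1% of naive cells, so batch 3 showed no higher share. Nfkb2 had one in 56.2% (44.7 to 67.3) and 43.4% (32.1 to 55.3) of inflamed cells, against 62.3% (47.9 to 75.2) and 50.8% (37.5 to 64.1) of naive cells, the same direction as its sums, with overlapping intervals. With all deposited cells, the count was 5 of 10, where 30.5% of all genes did, and Nfkbiz was 0.535 points lower in inflamed cells of batch 2.

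With at least 5 reads in thinned cells, Nfkbiz was in 94.3% (95% exact interval 86 to 98.4) and 81.9% (71.1 to 90) of inflamed cells of batches 2 and 3, against 60.9% (45.4 to 74.9) and 43.6% (30.3 to 57.7) of naive cells. Tnfaip3 reached 60% (47.6 to 71.5) and 63.9% (51.7 to 74.9) of inflamed cells, against 30.4% (17.7 to 45.8) and 38.2% (25.4 to 52.3) of naive cells. Relb reached 44.3% (32.4 to 56.7) and 41.7% (30.2 to 53.9) of inflamed cells, against 17.4% (7.82 to 31.4) and 20% (10.4 to 33) of naive cells. Nfkbiz and Tnfaip3 thus differed in how many cells held several reads more than in how many held any.

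Birc3 reached 71.4% (59.4 to 81.6) and 65.3% (53.1 to 76.1) of inflamed cells, against 52.2% (36.9 to 67.1) and 38.2% (25.4 to 52.3) of naive cells. Nfkb2 reached 35.7% (24.6 to 48.1) and 26.4% (16.7 to 38.1) of inflamed cells, against 19.6% (9.36 to 33.9) and 18.2% (9.08 to 30.9) of naive cells, with intervals that overlap in each batch. At this setting the share of this gene was higher in inflamed cells, the other way from its sums and from its share at 1 read. Nfkb1 was at 58.6% (46.2 to 70.2) and 65.3% (53.1 to 76.1) of inflamed cells, against 67.4% (52 to 80.5) and 56.4% (42.3 to 69.7) of naive cells, and Nfkbia at 100% in all 4. For Nfkb1 the direction differed between the batches. The 3 rarest genes were read in few cells. Bcl3 reached 21.4% (12.5 to 32.9) and 27.8% (17.9 to 39.6) of inflamed cells, against 8.70% (2.42 to 20.8) and 5.45% (1.14 to 15.1) of naive cells. Zc3h12a reached 17.1% and 9.72% of inflamed cells, against 2.17% and 3.64% of naive cells. Nfkbie reached 8.57% and 13.9% of inflamed cells, against 0 of 46 naive cells of batch 2, which allows a share of up to 6.52% by a limit of 3 cells and up to 7.71% by the exact interval, and 1.82% of naive cells of batch 3.

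**Figure D4:**
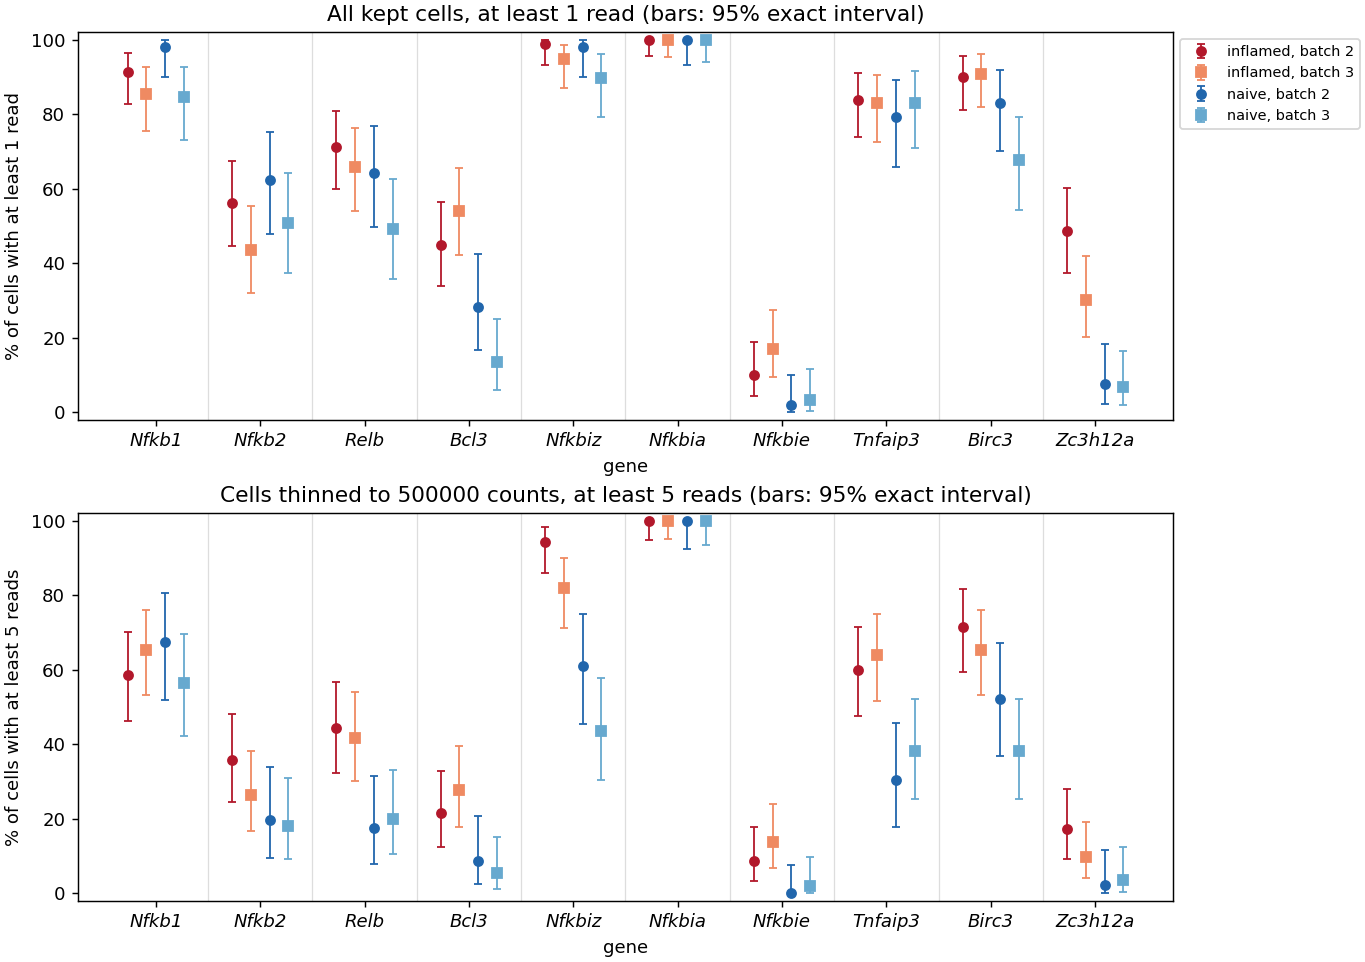
Percent of cells with a gene, with 95% exact intervals, in inflamed and naive cells of each batch, for all kept cells at 1 read or more (top) and for cells thinned to 500000 counts at 5 reads or more (bottom, a combination chosen after seeing the data). In the top panel the intervals of the conditions do not overlap for Zc3h12a in both batches and for Bcl3 and Birc3 in batch 3. In the bottom panel they do not overlap for Nfkbiz in both batches, for Relb and Tnfaip3 in batch 2 and for Bcl3 and Birc3 in batch 3.

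A single cell held reads of few or many of the 10 genes. In thinned cells, the mean number with at least 1 read was 6.66 ± 1.52 (SD over 70 cells) and 6.19 ± 1.58 (72 cells) in inflamed cells of batches 2 and 3, and 5.76 ± 1.27 (46 cells) and 5 ± 1.37 (55 cells) in naive cells, a difference of 0.896 genes in batch 2 and 1.19 in batch 3. The differences are smaller than the spread over cells. In all kept cells without thinning they were 0.724 and 1.15. At least 7 of the 10 had a read in 58.6% and 41.7% of thinned inflamed cells, against 30.4% and 14.5% of thinned naive cells. With at least 5 reads, chosen after seeing the data, the mean number was 5.11 ± 1.64 (SD over 70 cells) and 4.96 ± 1.72 (72 cells) in inflamed cells of batches 2 and 3, and 3.59 ± 1.44 (46 cells) and 3.25 ± 1.48 (55 cells) in naive cells. At least 7 of the 10 were read at this level in 18.6% and 18.1% of inflamed cells, against 4.35% and 1.82% of naive cells. No thinned cell had 0 and none had all 10 at this level. These spreads are over cells and not over animals. Fewer genes of any kind were detected in the naive cells of batch 3 (median 3432), and in batch 2 the medians of the conditions lay close together (4683 in inflamed and 4739 in naive cells).

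**Figure D5:**
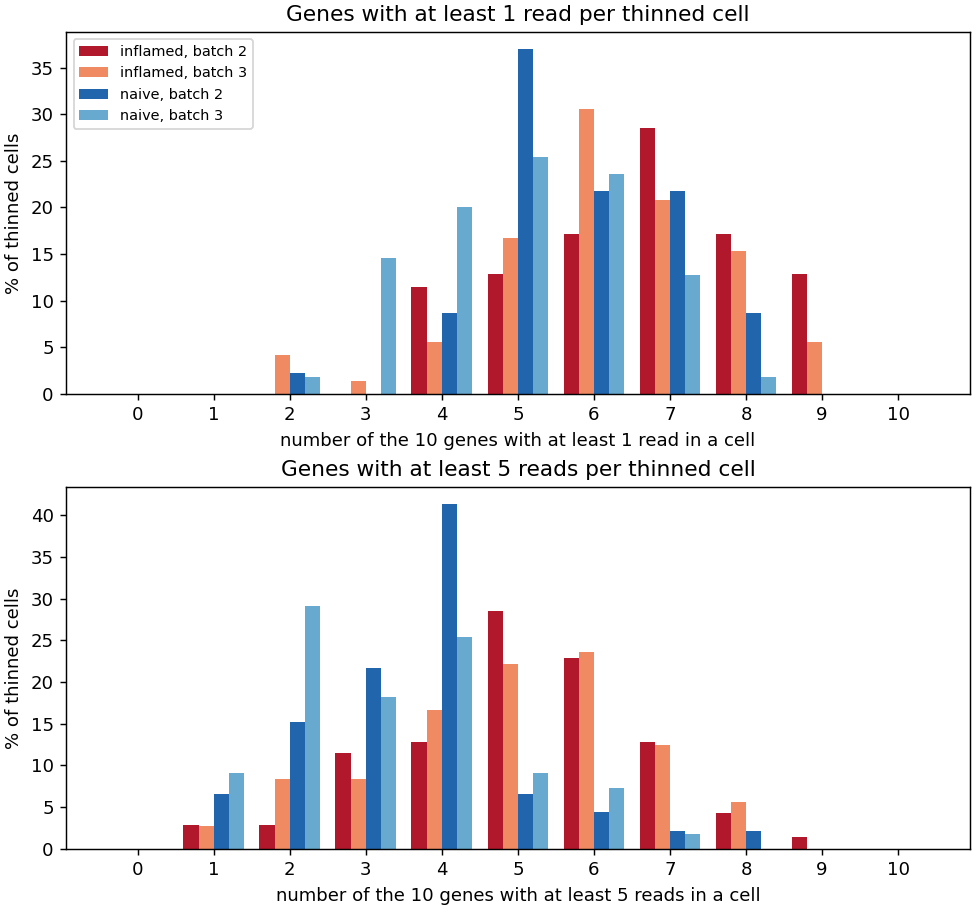
Percent of thinned cells by the number of the 10 genes with at least 1 read (top) and at least 5 reads (bottom, chosen after seeing the data), for inflamed and naive cells of each batch. In the top panel the inflamed bars peak at 7 genes in batch 2 and 6 in batch 3, and the naive bars at 5 in both.

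The 10 genes were weakly correlated with one another from cell to cell. Spearman's rho of log2(CPM + 1) was computed over the cells of each condition and batch and averaged over the 4, as a description with no test, since the cells of a group share libraries and depth. Over the 45 pairs, the mean rho had a median of 0.08 and ran from -0.04 to 0.22. The highest was that of Nfkb1 with Nfkbiz, followed by Nfkbia with Tnfaip3 at 0.21 and Nfkbiz with Tnfaip3 at 0.21. In counts this sparse, such values are weak.

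Genes most like the 3 members read in the most cells (Nfkbia in 268, Nfkbiz in 256 and Nfkb1 in 240 of 268 cells) were sought among 4826 others with reads in 20% or more of each group of cells. For Nfkbia they were the pseudogene Gm17936 (mean rho 0.34 over the 4 groups), the immediate early gene Junb (0.33) and Cnn3 (0.33). For Nfkbiz they were Pnrc1 (0.28), Celf1 (0.28) and Hivep1 (0.28), the last encoding a zinc finger protein that binds NF-kB-like sites. For Nfkb1 they were St14 (0.32), a membrane protease, Atl2 (0.28) and 9130230L23Rik (0.27). Other measures gave other orders. In thinned cells Pnrc1 ranked 18 and Celf1 15 for Nfkbiz and Atl2 14 for Nfkb1, and by Pearson's r Junb ranked 19 and Gm17936 10 for Nfkbia and Celf1 12 for Nfkbiz. Cnn3, Hivep1, St14 and 9130230L23Rik ranked between 1 and 5 on both. Both measures use the same cells from which the genes were picked, so they are no independent support. Values picked as the highest among 4826 are also raised by that choice. Within single groups the rho of the Nfkbia pairs ran from 0.13 to 0.52. That of Celf1 with Nfkbiz ran from 0.14 to 0.48 and that of Pnrc1 from 0.26 to 0.32, so the likeness was uneven for some pairs.

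Immediate early genes, which are switched on within minutes by many stimuli, cell dissociation among them, were lower in inflamed cells. Of 26 genes of this list, 21 were lower and 2 higher in both batches, where 28.3% of all genes were lower and 30.9% higher. At an unadjusted p under 0.05 by edgeR 14 were lower, where 3.23% of all genes were. DESeq2 called 15 of the 26 lower and 0 higher, where it called 4.11% of 13001 genes lower and 7.13% higher. The median log2 fold change was -1.92 in batch 2 and -1.81 in batch 3, against 0.05 and 0.06 over all genes. Egr1 had 376 and 802 CPM in inflamed and 5671 and 9366 CPM in naive sums, Fos 350 and 425 CPM in inflamed and 2426 and 2677 CPM in naive sums, and Ier5 and Myc were the 2 that were higher. In single cells the summed level of the list had a median of 8493 and 10523 CPM in inflamed and 30758 and 33422 CPM in naive cells. Within groups, Nfkbia followed this sum weakly (mean rho 0.25, from 0.11 to 0.35), and Zc3h12a had a mean rho of -0.14 (from -0.33 to -0.01). The median share of mitochondrial reads was 3.73% and 2.82% in inflamed cells of batches 2 and 3, against 2.67% and 2.26% in naive cells, and Nfkbia had a mean rho of -0.29 with it (from -0.40 to -0.16). The part of the immediate early level and of the mitochondrial share in the difference between the conditions was not tested.

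The other genes of the pathway came from lists chosen with earlier results of these data known, and no gene in them passed edgeR's test. DESeq2 called higher 2 of 26 genes of the kinase complex and adaptors, 4 of 12 receptors, 2 of 5 ligands and 1 of 12 other feedback genes. It called lower 1 gene of the kinase complex and adaptors. Over all 13001 genes it called 7.13% higher and 4.11% lower. Of the genes named below, Tlr2, Tnfrsf11a, Il1a, Tnf, Tnip3 and Ccl20 passed the filter on low counts only through their inflamed sums, where they were high. Nfkbid passed only through its naive sums. Their places in the counts, medians and DESeq2 calls of these lists depend on that filter. Of the 4 remaining family members (Rela, Rel, Nfkbib and Nfkbid), 0 stood higher and 2 lower in each batch, with medians of -0.58 and -1.13. In this count, and in that of each list below, 30.9% of all genes were higher and 28.3% lower. Beside Rel, the lower one was Nfkbid, which encodes a further nuclear IkB protein. It had 3 and 29 counts (0.0381 and 0.381 CPM) in inflamed and 385 and 305 counts (6.82 and 6.42 CPM) in naive sums, where 1 cell gave 50.4% of the naive reads in batch 2 and 93.1% in batch 3. In batch 2 the naive level was 179.3-fold the inflamed one, with a 95% counting interval of 60.9 to 873, and in batch 3 it was 16.8-fold.

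The kinase complex and its adaptors made up 26 genes, of which 9 stood higher and 7 lower in each batch, with medians of 0.37 and -0.16. In the same count, 30.9% of all genes were higher and 28.3% lower. Tbk1, a kinase related to the IkB kinases, had 173.7 and 206.8 CPM in inflamed and 89 and 48.3 CPM in naive sums. Malt1, a protease and scaffold of the pathway, had 20.6 and 25.4 CPM in inflamed and 0.142 and 3.77 CPM in naive sums, and 1 cell gave 75% and 86% of the naive and 43.4% and 44.9% of the inflamed reads. Map3k14, the kinase that starts the non-canonical branch, had 4.58 and 2.26 CPM in inflamed and 16.3 and 95.4 CPM in naive sums, and 1 cell gave 91.5% and 97.7% of the naive reads. Without the top cell of each sum it had 1.58 and 1.68 CPM in inflamed and 1.404 and 2.20 CPM in naive sums, so its direction differed between the batches. Rbck1, a subunit of the linear ubiquitin ligase, had 15.8 and 27.1 CPM in inflamed and 39.2 and 95.8 CPM in naive sums.

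Of 15 receptors, 12 were tested, of which 6 stood higher and 3 lower in each batch (medians 1.17 and 1.20). Tlr2, a receptor for bacterial lipoproteins, had 1212 and 3578 counts (15.4 and 47.1 CPM) in inflamed and 0 and 0 counts in naive sums, at least 289.2-fold higher in batch 2 and at least 745-fold higher in batch 3 against a floor of 3 counts per sum. In the inflamed sums 1 cell gave 40.8% and 57.3% of its reads, and without that cell the bounds were 174.1-fold and 325-fold. Tnfrsf11a, which encodes RANK, had 16.2 and 17.1 CPM in inflamed sums and 0 and 1 count in naive sums. Against the same floor it was at least 305-fold higher in batch 2, or at least 181.8-fold without the inflamed cell with the most reads. In batch 3, where the 1 naive read allows a ratio with an interval and no bound, it was 812-fold higher with a 95% counting interval of 145.4 to 32084. There 1 inflamed cell gave 39.7% of the Tnfrsf11a reads, and without that cell the inflamed level was 10.4 CPM. Ltbr, the lymphotoxin beta receptor, which feeds the non-canonical branch, was lower, at 18.2 and 13.3 CPM in inflamed and 41.2 and 47.5 CPM in naive sums. Il17rc, a subunit of the interleukin 17 receptor, was at nearly one level in batch 2 and lower in batch 3, at 6.82 and 0.132 CPM in inflamed and 6.93 and 1.20 CPM in naive sums. Without the top cell of each sum, Ltbr had 13.6 and 3.33 CPM in inflamed and 29.9 and 16.2 CPM in naive sums, and Il17rc 3.08 and 0.040 CPM in inflamed and 2.41 and 0.511 CPM in naive sums, so that Il17rc was higher in inflamed batch 2. Leaving out the top cell of these pathway genes was chosen after seeing the data.

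Of 11 ligands, 5 were tested and 3 stood higher and 0 lower in each batch, with medians of 0.50 and 2.94, or 0.52 and 2.94 with sums of 0 set to 3 counts. Tnf and Il1a are among the 3 and passed the filter only through their inflamed sums, so that count is no support. Ltb, Il1b, Il36a, Il36g and Tnfsf11 had no read in any sum, and whether these rows are as first counted could not be checked. Tnf, which encodes tumour necrosis factor, had 313 and 236 counts in inflamed and 0 and 0 counts in naive sums, at least 74.7-fold and at least 49.1-fold higher against the floor. In inflamed batch 2, 1 cell gave 48.6% of its reads, and without the top cell of each sum the bounds were 38.96-fold and 38.1-fold. Il1a, an agonist of the interleukin 1 receptor, had 11630 and 5963 counts in inflamed and 0 and 4 counts in naive sums.

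Of 12 other feedback genes, 6 stood higher and 1 lower in each batch (medians 0.68 and 1.08). Tnip3, which encodes a partner of A20, had 289.4 and 277.6 CPM in inflamed and 0.106 and 26.1 CPM in naive sums, and 1 cell gave 50.6% of the reads of naive batch 3 (edgeR adjusted p = 0.602, DESeq2 adjusted p = 1.51e-09). Otud7b, a deubiquitinase, had 109.7 and 66 CPM in inflamed and 64.8 and 20.5 CPM in naive sums. Rnf11, a further partner of A20, was the lower one, at 106.9 and 68.8 CPM in inflamed and 201 and 173.9 CPM in naive sums.

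Of 28 target genes, 24 were tested, and 17 stood higher and 1 lower in each batch (medians 1.98 and 2.19, and the same with sums of 0 set to 3 counts). At an unadjusted p under 0.05 by edgeR, 11 were higher, where 5.04% of all genes were. DESeq2 called 10 of the 24 higher, where it called 7.13% of 13001 genes higher. Ptgs2, the inducible cyclooxygenase, had 1780 and 2027 CPM in inflamed and 106.2 and 120 CPM in naive sums, and 1 cell gave 66.4% of the reads of naive batch 3. Ccl20, a chemokine of epithelia, had 466 and 1753 CPM in inflamed and 0 and 0.40 CPM in naive sums. In the inflamed sums 1 cell gave 38.9% and 53.1% of the Ccl20 reads, and without it the levels were 289.1 and 846 CPM. The 1 lower target was Gadd45b, a stress-induced regulator of kinases, at 158.5 and 146.3 CPM in inflamed and 195.5 and 202 CPM in naive sums. Set beside these, the 10 subunit and feedback genes had medians of 1.44 and 0.78, and the difference between the lists was not tested.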

How the data were processed

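The authors deposited untransformed read counts for 48440 genes in 282 cells, split into a table for each batch; capture was with the Fluidigm C1 system and SMARTer chemistry, per the labels' protocols. TopHat2, HTSeq, R 3.4.1, Seurat 1.4 and the build GRCm38.p6 are named without roles, per the submitters' processing notes. The treatment of reads that map to several places was not given in the sources used. Symbols, places and exon lengths came from GENCODE M21 (GRCm38), which named 48058 of the rows.

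Cells were filtered, summed per condition and batch, and tested with edgeR 4.0.16 (filterByExpr, TMM, quasi-likelihood F test, condition and batch in the model, 14713 genes, Benjamini-Hochberg adjusted p under 0.05) in R 4.3.3. P-values rest on 1 residual degree of freedom beside 2.66 prior, and measure only how far 2 batches differ, which can be a technical spread. The batch in the labels pairs the sums, and across genes the batch deviations of inflamed and naive sums had a correlation of -0.01. Within-batch log2 fold changes used a prior count of 2. DESeq2 1.42.0 and other scalings, filters and cell sets were alternatives. Intervals came from SciPy 1.17.1. The 10 genes, the lists and the rule for naming list genes (in each list the 2 with the lowest p among those higher, and the 2 among those lower, in both batches) were chosen with earlier results of these data known. No doublet caller was run.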

Additional observations from a re-analysis of the deposited data

How the results depend on the processing

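Of the 10 genes, 7 (Nfkb2, Relb, Bcl3, Nfkbiz, Nfkbie, Birc3 and Zc3h12a) kept the sign of the fitted log2 fold change under every alternative run. edgeR called 0 genes, and 0 of the 10, under each scaling, filter and cell set and with no replicate block (1836 genes at an unadjusted p under 0.05, against 1217 with it), and in each fit that left out 1 sum. DESeq2 called 1461 genes and 2 of the 10, Nfkbie and Birc3; the cause was not tested. Lowest edgeR adjusted p over the alternatives were 0.26 for Birc3 and 0.416 for Nfkbie. With the cell with the most reads left out of each sum, Nfkb1 turned to -0.052 and Nfkbia to -0.21 on the log2 scale. When 1 sum or 1 batch was left out, Nfkb1 ran from -0.12 to 0.31, Nfkbia from -0.34 to 0.64 and Tnfaip3 from -0.09 to 1.89, so these have no stable direction: without naive batch 2, Nfkb1 was at -0.0021, Nfkbia at -0.34 and Tnfaip3 at -0.086. In batch 2 alone Nfkb1 was at -0.033, and in batch 3 alone Nfkbia was at -0.029 and Tnfaip3 at -0.081. Nfkbie ran from 2.85 to 9.29, the highest with the cell with the most reads left out of each sum. Under the scalings, filters and cell sets, 6 or 7 of the 10 genes were higher in both batches, or 5 of the 9 that passed the filter on 20% of cells. In the main fit 30.9% of all genes tested were higher in both. The median log2 fold change of all genes was 0.10 in the main fit and 0.05 to 0.21 under the scalings and filters other than the filter on 20% of cells (0.01). Leaving out 1 of the 4 sums was fitted with no replicate block and assumes that a lone sum varies like the others.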
